A study of Mus musculus with 6 samples.

Results

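Interferon-stimulated genes are the genes that cells switch on when interferon binds its receptors, and 41 of them were followed by name in mouse infarct scars with and without a fibroblast deletion of Sox9. All 41 were found among the 14798 genes of the deposited count table and all 41 passed the filter on low counts, which left 14771 genes for testing. The deletion group (Sox9 fl/perCre, 3 libraries) carried a floxed Sox9 allele together with a Cre labelled perCre, which the series text describes as acting in fibroblasts alone, and the control group (Sox9 fl/fl, 3 libraries) is labelled with floxed alleles and with no Cre. In both groups the left anterior descending coronary artery had been ligated at 10 weeks of age, and the scar of the left ventricle was taken 6 weeks later, when the labels give the mice as 14 to 16 weeks old. Because the controls are labelled without Cre, the presence of Cre and the loss of Sox9 cannot be told apart, and scar cells in which the Cre is not active keep their Sox9. Whether each library stands for its own animal is not stated, and p-values therefore reflect the spread between libraries, which could be technical.

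Type I interferons bind a receptor that acts through the kinases JAK1 and TYK2, and a complex that contains STAT2 and IRF9 then binds the interferon-stimulated response element (ISRE) of target promoters. Interferon gamma, the type II interferon made mainly by T and natural killer cells, acts through gamma-activated sites (GAS) in promoters, and in the mouse it is a strong inducer of the guanylate-binding proteins and the immunity-related GTPases. In the infarcted mouse heart, macrophages that take up nucleic acids of dying cells are known to mount a type I interferon response through IRF3. The products detect viral RNA, block viral entry, translation or replication, attack the vacuoles of intracellular microbes, or feed back on the pathway.

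Levels are given below as CPM (reads of a gene per total reads, scaled to a common library size) adjusted by TMM, a correction for differences in library composition, and values of single libraries are listed in the order of replicates 1 to 3. Total counts were between 22666770 and 48515962 in deletion libraries and between 18538171 and 55523974 in controls. Replicate 1 of both groups held odd and even counts, with 49.26% even in the deletion and 49.95% in the control library, whereas replicates 2 and 3 held even counts alone. The labels give no batch, and the word is used below for this property of the counts. Control replicate 3 stood apart from all other libraries in genes tied to sex: Xist was at 812 CPM there and at most 7.61 CPM elsewhere, and Ddx3y was at 0.596 CPM there and at 122 CPM or more elsewhere. Sox9 itself was at 42.1, 51.7 and 55.8 CPM in deletion scars, against 71.1, 75.8 and 67.7 CPM in controls. Its log2 fold change was -0.52 ± 0.15 (SE; edgeR quasi-likelihood adjusted p = 0.564), so its groups were apart but transcripts remained in deletion scars. Fibroblast markers summed to 3739, 8876 and 8223 CPM in deletion scars, against 8834, 10135 and 9542 CPM in controls. Cardiomyocyte markers summed to 130109, 71701 and 66694 CPM in deletion scars, against 71993, 45456 and 46934 CPM in controls. Deletion replicate 1 was thus the lowest library for fibroblast markers and the highest for cardiomyocyte markers, and the results below are given with and without it and control replicate 3 where either decides a value.

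RefSeq promoter windows of the GRCm38.p6 build, running from 250 bases before to 50 bases after a transcript start, were matched by symbol for 30 of the 41 genes. The letters GAAANNGAAA, a core of the ISRE searched on both strands, were found in 19 of the 30 (63.3%), against 3.99% of the 27025 genes with a window, and in 3.44% of all 32851 windows. The letters TTCNNNGAA, the core of the GAS, were found in 12 of the 30 (40%), against 9.55% of genes and 8.3% of windows, and the letters of both cores overlapped in 2 of the 35 windows of these genes. A match describes the letters in a window and is not a measured binding site. The stretches of 50 bases below are shown 5′ to 3′ on the strand of the gene. They are from antiviral genes (Isg15, Ifit1, Ifit3, Bst2) and from some of the guanylate-binding protein and immunity-related GTPase genes. Gbp4, Gbp6 and Iigp1 had no matched window, and the stretches of Gbp5 and Gbp7 are not printed. Capitals mark matches to the ISRE core. Capitals that begin with TTTC are matches on the opposite strand.
Isg15 at chr4:156200855-156200904, minus strand: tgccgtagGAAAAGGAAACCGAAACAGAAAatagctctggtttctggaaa
Ifit1 at chr19:34640784-34640833, plus strand: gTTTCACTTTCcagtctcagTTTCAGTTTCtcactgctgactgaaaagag
Ifit3 at chr19:34583387-34583436, plus strand: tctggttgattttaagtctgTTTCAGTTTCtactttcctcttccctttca
Bst2 at chr8:71537567-71537616, minus strand: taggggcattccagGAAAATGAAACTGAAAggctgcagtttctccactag
Gbp2 at chr3:142620584-142620633, plus strand: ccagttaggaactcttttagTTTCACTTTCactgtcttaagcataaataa
Gbp3 at chr3:142559985-142560034, plus strand: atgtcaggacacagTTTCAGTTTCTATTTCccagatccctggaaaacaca
Igtp at chr11:58199502-58199551, plus strand: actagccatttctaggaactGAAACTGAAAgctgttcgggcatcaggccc
Irgm2 at chr11:58214893-58214942, plus strand: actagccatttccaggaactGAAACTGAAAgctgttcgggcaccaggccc
Tgtp1 at chr11:48992294-48992343, minus strand: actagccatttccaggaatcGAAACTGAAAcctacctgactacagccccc
Irgm1 at chr11:48871421-48871470, minus strand: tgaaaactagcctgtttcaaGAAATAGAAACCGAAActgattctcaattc
Igtp and Irgm2 had the same base at 48 of the 50 positions, Igtp and Tgtp1 at 34, and Irgm2 and Tgtp1 at 36. In these 3 genes the windows also held the GAS core a few bases before the printed capitals.

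None of the 41 genes passed an edgeR adjusted p of 0.05 between deletion and control scars, where 0% of the 14771 genes tested passed, and their adjusted p-values ran from 0.564 to 0.984. By fitted direction 36 of the 41 (87.8%) were lower in deletion scars, with a median log2 fold change of -0.26, against 52.4% of all genes tested with a median of -0.017. At an unadjusted p below 0.05 only Ifit3 was lower, 1 of 41 (2.44%) against 3.04% of all genes tested. None was higher, against 5.3% of all genes tested. Deletion and control libraries did not overlap in Ifit3 and Irf7, both lower in deletion scars, which is 4.88% of the genes against 8.6% of all genes tested. No gene of the list had all deletion libraries above all controls, against 8.87% of all genes tested.

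The summed level of the 41 genes was 1344, 1973 and 1973 CPM in deletion scars, against 1505, 1575 and 3210.5 CPM in controls. One library set the upper end: control replicate 3 was the highest of the 6 libraries in 36 of the 41 genes (87.8%), against 20.4% of all genes tested, and it was more than 2-fold above the mean of control replicates 1 and 2 in 16 of the 41 (39.0%), against 5.52%. Deletion replicate 1 was the lowest library in 23 of the 41 (56.1%), against 33.8%. With control replicate 3 left out, the median log2 fold change was 0.0086 and 19 of the 41 genes (46.3%) were lower in deletion scars, against 48.3% of all genes tested. The list thus did not lean towards lower levels in that fit. Deletion replicate 1 against control replicate 1, a pair without control replicate 3, gave a median of -0.23 with 26 of the 41 lower, against 7341 of all 14771 genes tested. With deletion replicate 1 left out and control replicate 3 kept, the median was -0.16 and 28 of the 41 were lower, against 8098 of all 14771 genes tested. The log2 fold changes that then turned from negative to positive were those of Ifit1 (0.018), Isg15 (0.037), Stat2 (0.13), Gbp7 (0.076), Irgm2 (0.10), Iigp1 (0.31), Parp14 (0.064) and Ifi27 (0.076).

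**Figure D1:**
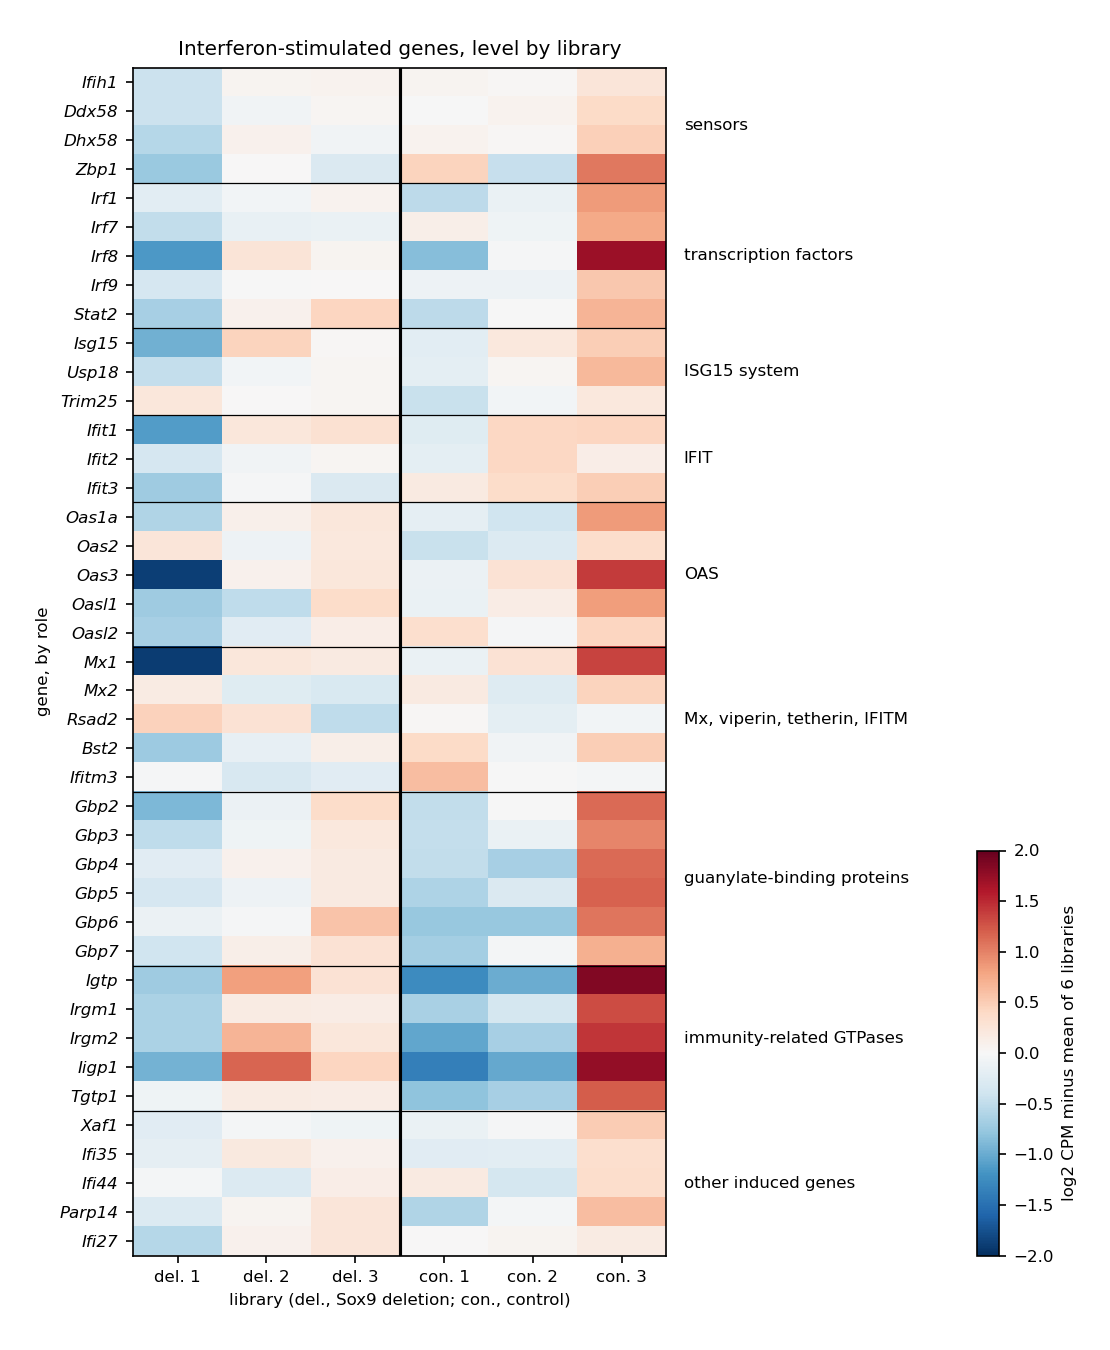
Level of each of the 41 interferon-stimulated genes (rows, by role) in the 3 deletion and 3 control libraries (columns), as log2 CPM minus the mean of the 6 libraries, with the colour scale ending at 2 on both sides. Control replicate 3 is the highest library in 36 of the 41 rows and deletion replicate 1 the lowest in 23.

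The immunity-related GTPases, which disrupt the vacuoles that shelter intracellular parasites and bacteria, were highest in control replicate 3, and in 4 of the 5 genes every deletion library lay above control replicates 1 and 2. Iigp1, an effector GTPase that loads onto such vacuoles, was at 69.6, 300.3 and 180.1 CPM in deletion scars, against 52.2, 65.8 and 456 CPM in controls. Igtp (Irgm3), a regulator that keeps the effector GTPases inactive on the cell's own membranes, was at 26.3, 76.3 and 53.1 CPM in deletion scars, against 18.1, 21.8 and 157 CPM in controls. In both genes the highest library was a control and the lowest 2 were controls as well, with the deletion libraries in between. Irgm2, another regulator of the family, was at 42.1, 104 and 76.4 CPM in deletion scars, against 31.7, 40.9 and 176 CPM in controls. The effector Tgtp1 (Irgb6) was at 34.1, 40.6 and 40.2 CPM in deletion scars, against 20.7, 22.9 and 83.7 CPM in controls. These show the same order, with every deletion library above control replicates 1 and 2 and below control replicate 3. Irgm1, a regulator linked to autophagy, was at 30.0, 52.6 and 51.7 CPM in deletion scars, against 29.9, 36.7 and 116 CPM in controls. Here deletion replicate 1 lay next to control replicate 1.

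Across all 6 libraries the log2 fold changes of the 5 immunity-related GTPases were -0.062 (Iigp1), -0.34 (Igtp), -0.16 (Irgm2), -0.15 (Tgtp1) and -0.44 (Irgm1), with a median of -0.16. Control replicate 3 was 7.85-fold above the mean of control replicates 1 and 2 for Igtp, 7.72-fold for Iigp1 and 3.85-fold for Tgtp1. Without that library the log2 fold changes were 1.64 ± 0.61 for Iigp1 (SE), 1.38 ± 0.46 for Igtp, 1.03 ± 0.40 for Irgm2, 0.81 ± 0.17 for Tgtp1 and 0.43 ± 0.29 for Irgm1, all above 0. Of these, Tgtp1 had the smallest unadjusted p (0.00331), with an edgeR adjusted p of 0.807. No GTPase of this family therefore passed with or without control replicate 3.

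The guanylate-binding proteins, large GTPases that coat microbes and damaged vacuoles and help to start inflammasome signalling, lay in a similar order. Gbp6 was at 103, 110.5 and 166 CPM in deletion scars, against 66.5, 66.5 and 236 CPM in controls. Gbp4 was at 42.1, 52.0 and 55.5 CPM in deletion scars, against 34.8, 30.9 and 108 CPM in controls. In both genes every deletion library lay above control replicates 1 and 2. Gbp5, which promotes NLRP3 inflammasome assembly, was at 22.2, 26.1 and 31.6 CPM in deletion scars, against 18.4, 22.9 and 63.5 CPM in controls. Gbp7 was at 51.0, 72.6 and 81.5 CPM in deletion scars, against 41.7, 65.4 and 109.7 CPM in controls. Both again had control replicate 3 as the highest library. Gbp2, among the family members best known as an interferon gamma target, was at 54.4, 94.1 and 132 CPM in deletion scars, against 72.6, 101 and 222 CPM in controls. Gbp3 was at 26.0, 34.9 and 42.8 CPM in deletion scars, against 26.5, 33.6 and 72.8 CPM in controls. In these 4 genes the deletion libraries overlapped control replicates 1 and 2. The median log2 fold change of the 6 genes was -0.29 with all libraries, with 5 of 6 lower in deletion scars. It was 0.36 without control replicate 3, with 0 of 6 lower, and Gbp6 then gave 0.93 ± 0.26 (SE, unadjusted p = 0.0125) and Gbp4 0.60 ± 0.19 (unadjusted p = 0.0189).

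**Figure D2:**
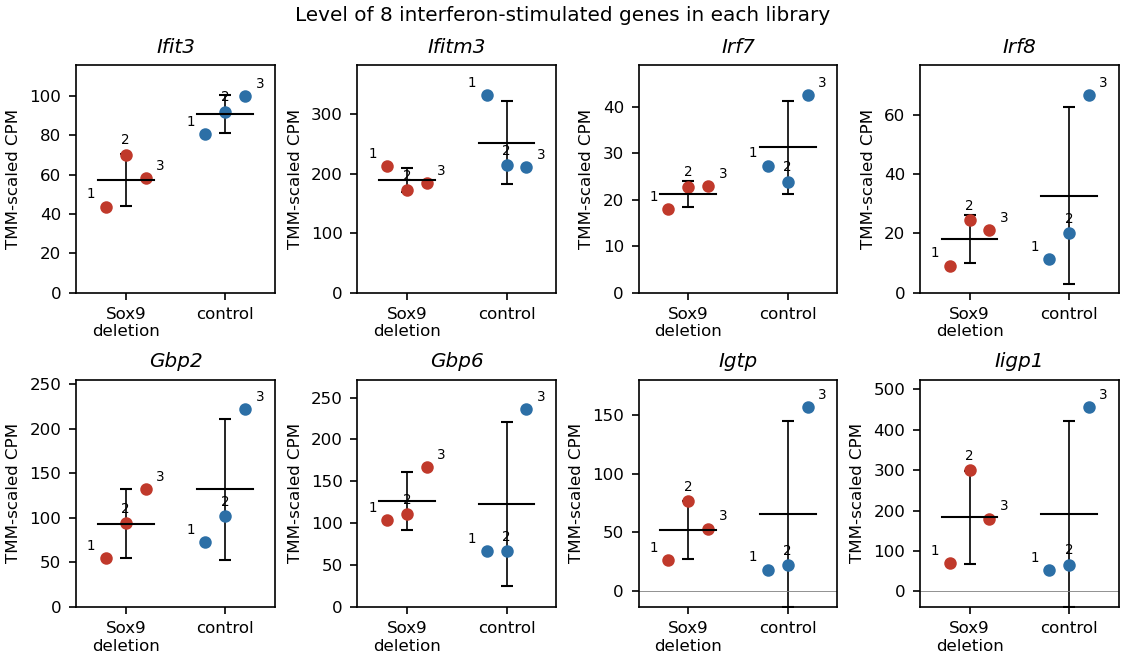
TMM-scaled CPM of 8 of the genes in each library, with Sox9 deletion on the left and control on the right of each panel, libraries numbered by replicate, and lines for the mean and SD of each group. Iigp1 is at 69.6, 300.3 and 180.1 CPM in deletion libraries and 52.2, 65.8 and 456 CPM in controls, whereas the deletion libraries of Ifit3 lie below all controls.

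The IFIT proteins bind viral RNA and block its translation. Ifit3 was the only gene of the 41 with an unadjusted p below 0.05 in the fit of all 6 libraries. It was at 43.8, 70.0 and 58.2 CPM in deletion scars, against 80.6, 91.9 and 100 CPM in controls, with means of 57.3 ± 13.2 CPM in deletion scars and 90.8 ± 9.71 CPM in controls (SD, n = 3 each). Its log2 fold change was -0.66 ± 0.20 (SE; unadjusted p = 0.0136, edgeR adjusted p = 0.564), and every deletion library was below every control. Without control replicate 3 it was -0.59 ± 0.23 (unadjusted p = 0.0461, edgeR adjusted p = 0.807), and unlike the immunity-related GTPases it kept its sign. Ifit1 was at 12.3, 31.5 and 33.4 CPM in deletion scars, against 22.8, 35.8 and 36.5 CPM in controls. Ifit2 was at 46.0, 55.2 and 59.6 CPM in deletion scars, against 50.6, 77.1 and 63.1 CPM in controls. Both had overlapping groups, with log2 fold changes of -0.30 for Ifit1 (0.018 without deletion replicate 1) and -0.25 for Ifit2.

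The OAS enzymes make the 2′-5′ oligoadenylates of the antiviral response, and the OASL proteins are related to them. Oasl2 was at 31.0, 42.0 and 53.9 CPM in deletion scars, against 62.1, 48.4 and 66.1 CPM in controls (log2 fold change -0.47 ± 0.23, edgeR adjusted p = 0.565). Oas3 was at 0.633, 2.62 and 2.90 CPM in deletion scars, against 2.28, 3.03 and 6.62 CPM in controls, with deletion replicate 1 the lowest library. Oasl1 was at 1.21, 1.40 and 2.62 CPM in deletion scars, against 1.84, 2.23 and 3.64 CPM in controls. The groups overlapped in each of these, and they were the OAS genes with the more negative fold changes. Oas1a was at 7.65, 12.4 and 13.5 CPM in deletion scars, against 10.2, 8.81 and 20.9 CPM in controls. Oas2 was the exception in direction, at 26.7, 21.1 and 26.0 CPM in deletion scars, against 16.6, 18.7 and 28.7 CPM in controls, with a log2 fold change of 0.20 in all libraries and 0.48 without control replicate 3 (unadjusted p = 0.0466).

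Among the genes whose products act at membranes or on viral particles, Ifitm3, which hinders the fusion of viruses with endosomes, was at 212, 172 and 184 CPM in deletion scars, against 332, 214 and 210.1 CPM in controls. It was highest in control replicate 1, unlike most of the list, and its groups overlapped. Its log2 fold change was -0.41 ± 0.23 (SE) with all libraries and -0.16 without control replicate 1. Bst2, or tetherin, which holds budding virions at the cell surface, was at 12.3, 18.1 and 22.1 CPM in deletion scars, against 26.6, 19.4 and 28.6 CPM in controls. Mx1, a dynamin-like GTPase of the nucleus in mice, was at 2.80, 12.3 and 11.9 CPM in deletion scars, against 9.57, 12.8 and 27.0 CPM in controls, so that deletion replicate 1 and control replicate 3 set both ends. Mx2, its cytoplasmic relative, was at 8.76, 6.60 and 6.32 CPM in deletion scars, against 8.85, 6.51 and 10.6 CPM in controls. Mx1 and Mx2 are listed with non-coding RefSeq transcripts, so their RNA levels are not taken to stand for protein. Rsad2, which encodes viperin, was at 26.3, 23.5 and 13.5 CPM in deletion scars, against 19.5, 16.7 and 18.4 CPM in controls. Its log2 fold change of 0.21 was above 0 and its groups overlapped.

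The transcription factors of the pathway were lower by fitted direction in all 5 cases and passed in 0. Irf7, the factor that amplifies type I interferon production, was at 17.9, 22.8 and 22.9 CPM in deletion scars, against 27.3, 23.8 and 42.5 CPM in controls. Deletion replicate 3 lay just below control replicate 2, so the groups were apart by a narrow gap. The log2 fold change was -0.56 ± 0.25 (SE; unadjusted p = 0.0616, edgeR adjusted p = 0.564). Irf8, also a lineage factor of macrophages and dendritic cells, was at 9.13, 24.4 and 21.0 CPM in deletion scars, against 11.2, 20.1 and 66.9 CPM in controls. Its log2 fold change of -0.85 became 0.22 without control replicate 3, which was 4.28-fold above the other controls. Irf1, an early target of interferon gamma, was at 36.0, 39.8 and 43.8 CPM in deletion scars, against 28.8, 38.0 and 74.9 CPM in controls, and turned likewise, with log2 fold changes of -0.25 in all libraries and 0.26 without that library. Stat2 was at 40.3, 68.2 and 86.6 CPM in deletion scars, against 44.6, 63.5 and 102 CPM in controls. Irf9 was at 33.5, 42.2 and 42.5 CPM in deletion scars, against 39.4, 39.2 and 61.5 CPM in controls. Both encode parts of the complex that binds the ISRE, and in both the groups overlapped. Without control replicate 3 the median of the 5 factors was 0.22, against -0.25 with all libraries, and 4 of the 5 were then positive, with Stat2 at 0.27 and Irf9 at 0.0063, while Irf7 stayed negative at -0.27.

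The sensors of nucleic acid start the response when they meet viral or misplaced RNA or DNA. Ddx58, which encodes RIG-I, was at 35.5, 45.5 and 49.1 CPM in deletion scars, against 47.7, 50.2 and 62.5 CPM in controls. Ifih1, which encodes MDA5, was at 24.1, 33.9 and 34.1 CPM in deletion scars, against 33.8, 33.0 and 38.4 CPM in controls. Dhx58, which encodes LGP2, a regulator of both, was at 5.86, 9.22 and 8.29 CPM in deletion scars, against 9.13, 8.85 and 12.1 CPM in controls. All 3 had fitted levels lower in deletion scars, with log2 fold changes of -0.30 (Ddx58), -0.19 (Ifih1) and -0.36 (Dhx58), and none had groups that were apart. Zbp1, a sensor of Z-form nucleic acid that can start necroptosis, was at 3.06, 5.20 and 4.23 CPM in deletion scars, against 7.01, 3.73 and 10.7 CPM in controls, a log2 fold change of -0.78 ± 0.42 (SE; edgeR adjusted p = 0.566). The median of the 4 sensors was -0.33 with all libraries and -0.19 without control replicate 3, so this group kept its sign.

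Isg15, the ubiquitin-like modifier that is attached to proteins during the response, was at 7.97, 21.3 and 15.9 CPM in deletion scars, against 13.5, 18.2 and 22.1 CPM in controls. Usp18, the protease that removes it and also restrains the type I receptor, was at 5.86, 7.82 and 8.37 CPM in deletion scars, against 7.12, 8.41 and 12.8 CPM in controls. Trim25, a ubiquitin ligase that acts on RIG-I, was at 49.5, 42.7 and 43.5 CPM in deletion scars, against 31.1, 40.7 and 49.0 CPM in controls. Trim25 was the one with a positive log2 fold change (0.17), while Isg15 had -0.25 (0.037 without deletion replicate 1) and Usp18 -0.36, and the groups overlapped in all 3. Of the remaining genes, Ifi27 was at 25.2, 40.0 and 44.4 CPM in deletion scars, against 37.8, 39.2 and 42.2 CPM in controls. Xaf1, linked to apoptosis, was at 17.1, 19.4 and 19.0 CPM in deletion scars, against 18.2, 19.7 and 28.5 CPM in controls. Parp14, an ADP-ribosyltransferase, was at 52.6, 66.2 and 75.7 CPM in deletion scars, against 41.9, 61.9 and 97.8 CPM in controls. In Xaf1 and Parp14 control replicate 3 was the highest library. Ifi44 was at 21.3, 18.1 and 24.1 CPM in deletion scars, against 24.9, 17.3 and 28.1 CPM in controls. Ifi35 was at 25.9, 33.5 and 31.1 CPM in deletion scars, against 25.0, 25.4 and 37.2 CPM in controls. Their log2 fold changes lay between -0.26 (Xaf1) and 0.047 (Ifi35), the narrowest range of the 9 role groups, and deletion and control libraries overlapped in each.

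**Figure D3:**
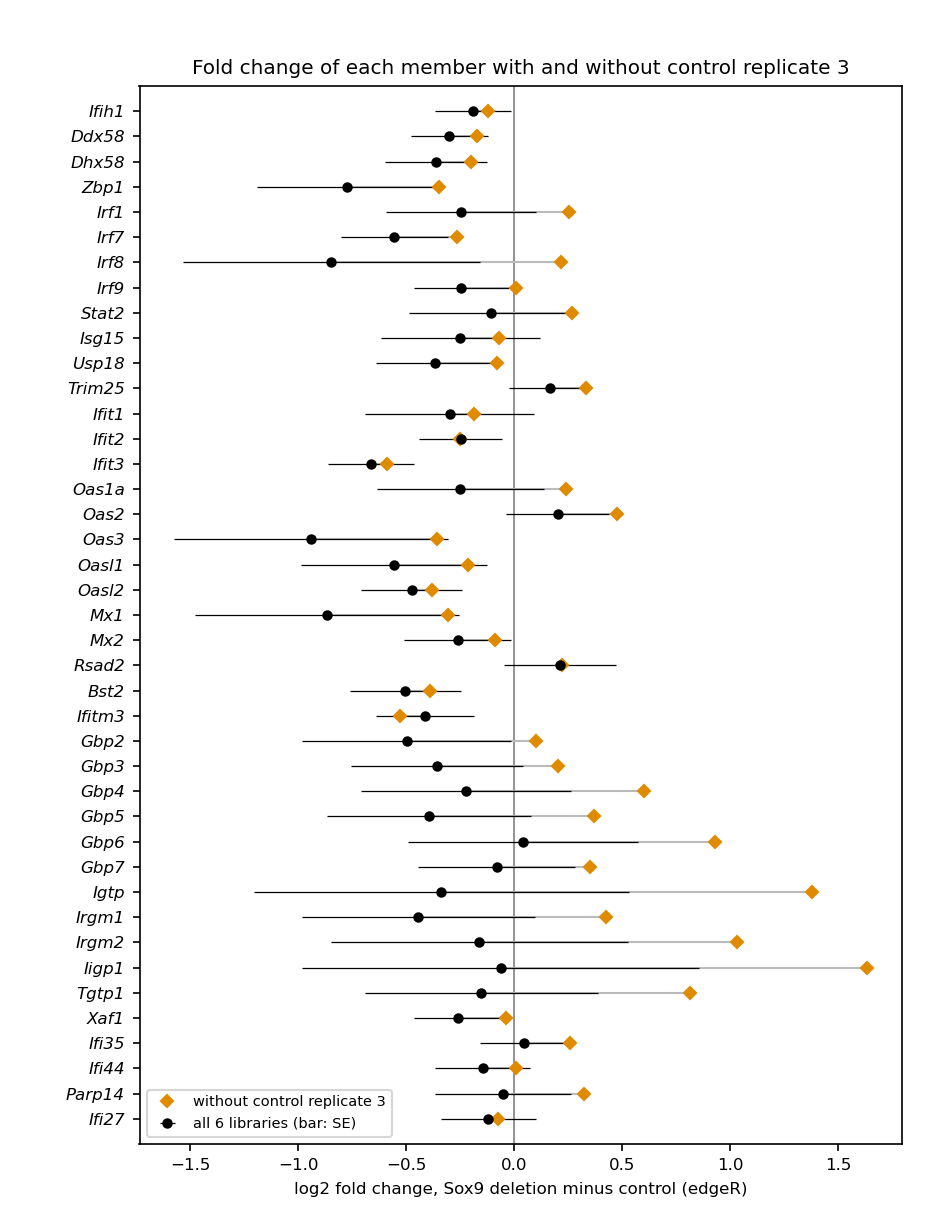
Log2 fold change (Sox9 deletion minus control, edgeR) of each of the 41 genes from all 6 libraries (black points, bars give the SE) and without control replicate 3 (orange diamonds). The diamonds of the immunity-related GTPases and guanylate-binding proteins lie above 0, up to 1.64 for Iigp1, while that of Ifit3 is at -0.59.

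Without control replicate 3, 7 of the 41 genes (17.1%) were higher in deletion scars at an unadjusted p below 0.05 (Iigp1, Igtp, Irgm2, Tgtp1, Gbp6, Gbp4 and Oas2), against 1.89% of all genes in that fit, and 1 was lower (Ifit3, 2.44%), against 2.38%. None of these 8 passed the edgeR adjusted threshold. In 9 of the 41 genes (22.0%) all deletion libraries were above both control replicates 1 and 2, against 12.3% of all genes tested, and in 3 (Ifit3, Irf7 and Ifitm3, 7.32%) all were below both, against 13.9%. Control replicate 3 was the highest library in 36 of the 41 genes, so leaving it out raises the fold changes of those genes. The shares above are therefore partly set by the choice of library and do not stand as a test. Within batches, the replicate 1 pair gave a median log2 fold change of -0.23 over the 41 genes, and replicates 2 and 3, which include control replicate 3, gave -0.28. For the immunity-related GTPases the batches differed in sign: the replicate 1 pair gave 0.41 for Iigp1, 0.54 for Igtp and 0.72 for Tgtp1. Replicates 2 and 3 gave -0.14 for Iigp1, -0.48 for Igtp and -0.42 for Tgtp1. Ifit3 was lower in both, at -0.88 in the first pair and -0.60 in the others. DESeq2 with the batch as a term, an analysis added after the data were seen, called 3 of the 41 lower (7.32%), against 4.12% of all genes tested: Ifit3 (log2 fold change -0.68, adjusted p = 0.000150), Mx1 (-1.04, adjusted p = 0.0348) and Ifitm3 (-0.38, adjusted p = 0.0314). In that fit 1927 of the 14771 genes tested were called, 1319 higher and 608 lower, and none of the 41 was called higher. Over all alternatives that gave one, the adjusted p ran from 0.000150 to 0.908 for Ifit3, from 0.0348 to 0.940 for Mx1, from 0.0314 to 0.908 for Ifitm3 and from 0.0617 to 0.995 for Tgtp1. The log2 fold change of Ifit3 was negative in every alternative, from -0.88 to -0.51.

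Other genes of the pathway were taken from lists of its parts. None of the 21 interferon genes was among the listed genes, so no value for a ligand was analysed here. The 9 receptor and kinase genes had a median log2 fold change of -0.13, with 6 lower in deletion scars. Jak1, the kinase shared by the type I and type II receptors, was at 191, 190.1 and 192 CPM in deletion scars, against 181, 199 and 203 CPM in controls. Ifngr1, the ligand-binding chain of the interferon gamma receptor, was at 101, 115 and 139.5 CPM in deletion scars, against 152, 142 and 184 CPM in controls. Jak1 thus differed little between libraries, while Ifngr1 had a log2 fold change of -0.43 ± 0.18 (SE; edgeR adjusted p = 0.564). Of the transducers, Stat3, which also serves interleukin-6 family receptors, was at 189, 180.3 and 204 CPM in deletion scars, against 183, 192 and 203 CPM in controls, with a log2 fold change of -0.012.

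The 7 transducers and interferon regulatory factors were all lower by fitted direction (median -0.17), as were 9 of 11 genes of upstream sensing (median -0.16). The 2 genes of this list with a positive log2 fold change were Mavs (0.62, 0.13 without deletion replicate 1) and Traf3 (0.026). Mavs, the mitochondrial adaptor of RIG-I and MDA5, was at 96.4, 45.7 and 42.6 CPM in deletion scars, against 43.0, 37.3 and 39.6 CPM in controls. Traf3, an adaptor between sensors and kinases, was at 61.9, 85.7 and 80.8 CPM in deletion scars, against 70.0, 76.5 and 77.9 CPM in controls. Among the lower genes was Myd88, the adaptor of most Toll-like receptors, at 21.4, 20.1 and 23.7 CPM in deletion scars, against 29.4, 24.5 and 31.2 CPM in controls with a log2 fold change of -0.38. All 5 inhibitor genes were lower (median -0.47). Ptpn2, a phosphatase of the JAK-STAT pathway, was at 37.2, 43.6 and 45.0 CPM in deletion scars, against 57.4, 43.2 and 47.7 CPM in controls. Pias1, a SUMO ligase that restrains STAT signalling, was at 29.2, 38.6 and 38.4 CPM in deletion scars, against 29.0, 40.4 and 38.7 CPM in controls. Ptpn2 had a log2 fold change of -0.24 and Pias1 of -0.026, both with overlapping groups. Without control replicate 3 the medians were 0.0087 for receptors and kinases, -0.0038 for transducers, -0.082 for upstream sensing and -0.051 for inhibitors. Of 47 further interferon-induced genes, 41 were lower, with a median of -0.30 in all libraries and 0.086 without control replicate 3. Gvin1, a very large interferon-inducible GTPase, was at 326, 372 and 438 CPM in deletion scars, against 302, 318 and 695 CPM in controls. Ly6e, a surface protein with roles in viral entry, was at 296, 331 and 344 CPM in deletion scars, against 384, 321 and 497 CPM in controls. In all, 68 of the 79 listed pathway genes were lower with a median of -0.24, 0 passed the edgeR adjusted threshold, and 5 were lower at an unadjusted p below 0.05 (6.33%, among them Ifit3b, Ifitm2, Pml and Myd88), against 3.04% of all genes tested, and 0 were higher, against 5.3%. Without control replicate 3, the median of the 79 was -0.0038 and 40 were lower. At an edgeR unadjusted p below 0.05, 1 of the 79 was then lower and 2 were higher, against 2.38% and 1.89% of all genes in that fit. Without deletion replicate 1, 3 of the 79 were lower and 1 was higher at that threshold, against 371 and 403 of all 14771 genes tested.

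Markers of immune cells varied between the same libraries. In these bulk samples, fewer cells of a type and less RNA per cell cannot be told apart. The 11 markers of T and natural killer cells summed to 10.8, 28.9 and 36.5 CPM in deletion scars, against 17.6, 16.6 and 120.4 CPM in controls. The 7 dendritic cell markers summed to 20.6, 33.4 and 46.0 CPM in deletion scars, against 21.0, 33.3 and 123 CPM in controls. For both lists control replicate 3 was the highest library by more than 2-fold over the next. The 10 macrophage markers summed to 673, 1346 and 1359 CPM in deletion scars, against 1040.1, 1509.5 and 2325 CPM in controls, again highest in control replicate 3 and lowest in deletion replicate 1. The 3 plasmacytoid dendritic cell markers summed to 5.17, 6.25 and 3.02 CPM in deletion scars, against 2.12, 1.39 and 13.9 CPM in controls. The 4 B cell markers summed to 1.69, 47.8 and 13.6 CPM in deletion scars, against 4.45, 6.00 and 21.9 CPM in controls, where deletion replicate 2 was highest. The 7 endothelial markers summed to 1316, 755 and 692 CPM in deletion scars, against 781, 828 and 697 CPM in controls, with control replicate 3 inside the range of the rest. All markers of these lists were listed in the table and none of them was at 0 in every library, and of 5 neutrophil markers 3 were listed. The part of immune cell content, and of the fibroblast and cardiomyocyte differences given above, in the levels of the interferon-stimulated genes was not tested. Control replicate 3 also stood apart in the genes tied to sex, so sex and that library cannot be told apart.

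**Figure D4:**
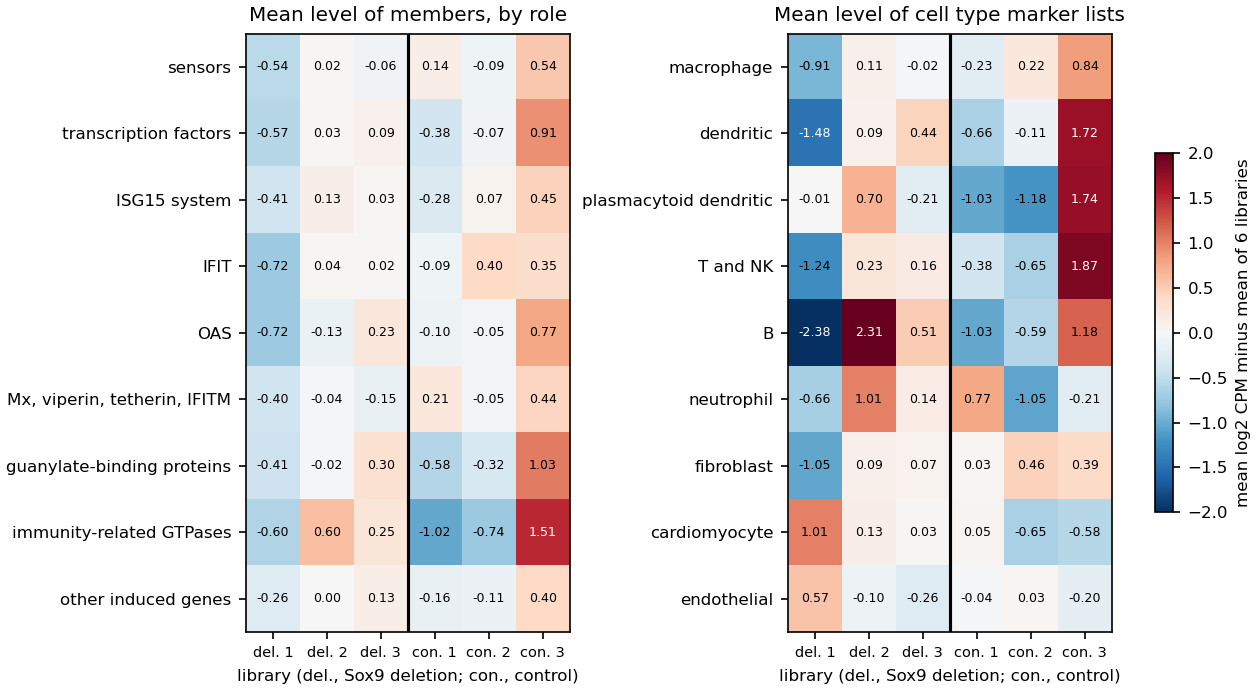
Mean log2 CPM minus the mean of the 6 libraries for each role group of the interferon-stimulated genes and for each list of cell type markers, by library. Control replicate 3 reaches 1.51 for the immunity-related GTPases, 1.87 for T and natural killer cell markers and 0.35 for the IFIT genes.

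Per kilobase of the listed transcript, and averaged over the 6 libraries, Ifitm3 was the most abundant of the 41 genes at 343 ± 88.9 CPM per kb (SD, n = 6), a level above that of 98.7% of all listed genes. Iigp1 followed at 63.8 ± 55.3 CPM per kb, then Gbp2 at 46.1 ± 24.4, Ifi27 at 37.6 ± 6.67 and Ifit3 at 37.1 ± 10.6 CPM per kb. The SDs of Iigp1, Gbp2, Ifi27 and Ifit3 span the gaps between neighbours, so the order among them is not resolved. Oasl1 at 1.02 ± 0.422 and Oas3 at 0.642 ± 0.419 CPM per kb were the least abundant.

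Several of these genes belong to clusters of near copies, and reads could have been split between them. In mm10, Ifit1 lies on chromosome 19 from 34640889 to 34650009 and Ifit3 from 34583529 to 34588982, Gbp2 lies on chromosome 3 from 142620663 to 142638008, and Igtp and Irgm2 are neighbours on chromosome 11, from 58199556 to 58207592 and from 58214977 to 58222783. Against GENCODE vM21 transcripts, 91.4% of the 50-base stretches of Tgtp1 also occurred in another gene, mostly its copy Tgtp2, as did 59.7% for Gbp6, 57.6% for Oas1a (mostly Oas1g) and 51.2% for Ifit3 (mostly Ifit3b). The levels of these 4 are therefore uncertain as levels of single genes, while 37 of the 41 shared under 15% of their stretches. Ifit3b, counted separately, was at 31.4, 48.6 and 42.3 CPM in deletion scars, against 51.2, 67.7 and 73.2 CPM in controls, so both copies had a lower mean in deletion scars. Because Ifit3 and Ifit3b share stretches, their levels may not be independent of each other. Exonic bases overlapped those of another gene in 15 of the 41 genes, 8 on the same strand, Igtp and Irgm2 among them, and 7 on the opposite strand, and whether counting used strand is not given in the sources used here.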

How the data were processed

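Per the labels' protocols, library preparation began with 100 ng of total RNA, while the series text speaks of polyadenylated RNA. Per the submitters' processing notes, Trim Galore, STAR, deepTools and the mm10 build were used, with no role or order given. The table the authors deposited has columns of raw counts for every gene, per the file headers, with their TMM signal values, a log2 fold change and a NOISeqBIO score, of which only the log2 fold change served, as an alternative. Listed genes had a mean count of at least 7.

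Counts were tested across all genes in R 4.3.3 by the edgeR 4.0.16 quasi-likelihood F test (TMM, filterByExpr, robust fit, two-sided, genotype as the only term, 4 residual degrees of freedom, Benjamini-Hochberg adjusted p below 0.05), after the code was tested on simulated data. SEs of log2 fold changes are their size divided by the square root of F, and log2 levels used a prior count of 2. DESeq2 1.42.0, voom of limma 3.58.1 and other settings were alternatives. With 3 libraries against 3, an exact permutation test cannot give a p below 0.1. Totals ran from 18538171 to 55523974 counts, and the SEs give the precision reached.

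The genes, their role groups, the pathway and marker lists and the tests were chosen with earlier results of these data known. Named genes were every one of the 41 and the 2 of highest mean CPM of each pathway list, except that 1 of the transducers so chosen is not reported here. Sox9 was named as the deleted gene, and Xist, Ddx3y, Ifit3b, Ifitm2, Pml and Myd88 after their values were seen. Promoter sequences are from RefSeq.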

Additional observations from a re-analysis of the deposited data

How the results depend on the processing

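No setting but DESeq2 with the batch term called any of the 41 genes at an adjusted p of 0.05. That one, added after the data were seen, called 3 (7.32%), all lower. It called 608 of all 14771 genes tested lower (4.12%) and 1319 higher. Over all genes, 0 were called in the reported fit (1232 had an unadjusted p below 0.05), 0 by voom, 51 by DESeq2, 1 with the batch term, 6 with the batch term and control replicate 3 left out, and 1927 by DESeq2 with the batch term. The number of the 41 with a negative log2 fold change was 22 with the batch term and control replicate 3 left out, and 19 to 38 when each library was left out in turn, the lowest without control replicate 3. The median over the 41 then ran from -0.45 to 0.0086. Scaling by library totals alone gave medians of -0.40 over the 41 and -0.15 over all genes, so their distance stayed close to that reported.

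Same-numbered libraries of both groups correlated in their deviations at 0.4818, 0.0131 and 0.1801, and not every library correlated best with its own number, so the numbers were not taken as pairs. A replicate block in edgeR called 0 genes. In that fit 2560 of all 14771 genes tested and 8 of the 41 had an unadjusted p below 0.05, which are similar shares. The block gave a median of -0.22 over the 41 with 29 negative, and turned the sign of Gbp4 0.021, Gbp7 0.00085, Igtp 0.28, Irgm2 0.19, Iigp1 0.42, Tgtp1 0.17 and Parp14 0.017. Signs also turned to the values given here, and the cause was not tested. With the batch term they were Iigp1 0.055, and with DESeq2 and the batch term Iigp1 0.057. With the batch term and control replicate 3 left out they were Irf1 0.22, Stat2 0.10, Oas1a 0.15, Gbp3 0.11, Gbp4 0.58, Gbp5 0.31, Gbp7 0.26, Igtp 1.14, Irgm1 0.30, Irgm2 0.83, Iigp1 1.23, Tgtp1 0.78, Ifi44 0.070 and Parp14 0.25. With library totals alone they were Gbp6 -0.099 and Ifi35 -0.084. With voom they were Gbp4 0.013, Gbp7 0.0098, Igtp 0.22, Irgm2 0.18, Iigp1 0.44, Tgtp1 0.11 and Parp14 0.022. With replicates 2 and 3 only they were Oas2 -0.027, Gbp6 -0.15, Trim25 -0.073 and Ifi27 0.037. Leaving out each library in turn gave Ifit1 -0.53 to 0.018, Isg15 -0.59 to 0.037, Irf1 -0.50 to 0.26, Irf8 -1.25 to 0.22, Irf9 -0.36 to 0.0063, Stat2 -0.37 to 0.27, Oas1a -0.48 to 0.24, Gbp2 -0.83 to 0.10, Gbp3 -0.62 to 0.20, Gbp4 -0.53 to 0.60, Gbp5 -0.70 to 0.37, Gbp6 -0.26 to 0.93, Gbp7 -0.36 to 0.35, Igtp -0.78 to 1.38, Irgm1 -0.77 to 0.43, Irgm2 -0.55 to 1.03, Iigp1 -0.63 to 1.64, Tgtp1 -0.48 to 0.81, Ifi35 -0.051 to 0.26, Ifi44 -0.33 to 0.0086, Parp14 -0.30 to 0.32 and Ifi27 -0.28 to 0.076. Depth limits the scarcest genes most: Oas3 had 12 counts in deletion replicate 1 and 41 in control replicate 1, so small differences in it were not detectable.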
